A study of Mus musculus with 8 samples.

Results

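The RLTR, VL30 and MuLV families are mouse endogenous retroviruses, the remains of retroviruses that entered the germ line and have been inherited since. The families described here are the repeat entries of the deposited count tables whose names start with RLTR, MMVL30, MuLV or MuRRS. This rule took 191 of the 1205 repeat families, which share each table with 54087 genes. Of the 191 families, 14 are internal parts, whose names end in "-int" (10 RLTR, 1 MMVL30, 1 MuLV and 2 MuRRS), and 177 are long terminal repeats (LTRs), all of them RLTR. The RNA came from whole testes of C57BL/6 male mice at 19 and 25 days postpartum (dpp). Mice homozygous for the Dnmt3A KO allele (KO/KO, here KO) were set against mice with both wild-type alleles (WT/WT, here WT). Each of the 4 groups, KO and WT at 19 dpp and KO and WT at 25 dpp, had 2 libraries, 8 in all. The labels name no Cre line or transgene and leave unstated what the KO allele removes. Nor do they say whether the 2 libraries of a group came from separate mice, so p-values measure only the spread between these libraries, which may be technical.

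An intact endogenous retrovirus has an internal part with the viral genes gag, pol and often env, flanked by a pair of LTRs that carry its promoter, enhancer and polyadenylation signal. Most copies in the genome are solo LTRs, left when the internal part was lost by recombination. MuLV is the murine leukemia virus group, and VL30 elements are relatives with no working viral genes whose RNA MuLV particles can package. RLTR6 LTRs flank the VL30 internal part and RLTR4 LTRs flank a MuLV-type internal part, while MuRRS elements are defective relatives of MuLV. In mammals DNA methylation is among the marks that keep such elements silent, and Dnmt3a encodes a methyltransferase that sets new methylation, which is why the comparison of KO with WT testes bears on them.

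Levels are counts per 1000000 gene counts (CPM), that is, the family's counts divided by the library's summed gene counts, and unless another scaling is named every rise and fall is relative to that gene total. Gene totals ran from 22515812 to 33864327 counts in the KO libraries and from 27142989 to 50445334 in the WT libraries, and 3 counts correspond to 0.0595 to 0.133 CPM. A family pools the reads of all its copies, those inside the introns and untranslated ends of genes included, and the lengths of the families were not used, so levels of 2 families do not compare their RNA per length. In bulk tissue, fewer cells of a type and less RNA per cell cannot be told apart. Dnmt3a itself measured 121 and 119 CPM in KO against 168 and 154 CPM in WT at 19 dpp, and 83.9 and 71.7 CPM in KO against 35.4 and 58.4 CPM in WT at 25 dpp. Since the labels do not say what was removed, this does not check the genotype. Markers of Sertoli cells, spermatogonia and spermatocytes were present in every group. The summed level of 12 markers of pachytene and later spermatocytes was 170 and 234 CPM in KO against 1281 and 2903 CPM in WT at 19 dpp, and 907 and 1595 CPM in KO against 8961 and 8056 CPM in WT at 25 dpp. The summed level of 14 spermatid markers was 128 and 142 CPM in KO against 223 and 407 CPM in WT at 19 dpp, and 252 and 276 CPM in KO against 5687 and 2606 CPM in WT at 25 dpp.

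Together the 191 families had a higher level in KO than in WT testes at both ages relative to the gene total. VL30 held the excess. Scaled by Sertoli cell marker counts in place of gene counts, 0 of the 180 families tested rose at either age. On that scale 95 fell at 19 dpp and 163 at 25 dpp. The summed level of the 191 families was 6179 and 5674 CPM in KO against 4395 and 4514 CPM in WT at 19 dpp, and 5225 and 4774 CPM in KO against 3342 and 3736 CPM in WT at 25 dpp, so the KO libraries lay above the WT libraries at each age. MMVL30-int, the VL30 internal part, made up 48.8% and 48.2% of those counts in KO against 34.9% and 29.0% in WT at 19 dpp. At 25 dpp its share was 46.0% and 40.0% in KO against 15.1% and 20.6% in WT. Without MMVL30-int and the RLTR6 LTRs, the sum was 2713 and 2513 CPM in KO against 2599 and 2984 CPM in WT at 19 dpp, where the groups overlapped. At 25 dpp that remainder was 2428 and 2552 CPM in KO against 2738 and 2821 CPM in WT, with the KO libraries the lower. All repeat families together amounted to 6.02% and 5.49% of the gene total in KO against 5.83% and 5.74% in WT at 19 dpp, and to 5.84% and 5.59% in KO against 4.27% and 4.48% in WT at 25 dpp.

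Relative to the gene total, VL30 was higher in KO testes at both ages, in its internal part and in its main LTR; scaled by Sertoli cell marker counts, the log2 fold change of MMVL30-int was 0.24 at 19 dpp and turned to −0.09 at 25 dpp. MMVL30-int measured 3016 and 2736 CPM in KO against 1532 and 1311 CPM in WT at 19 dpp. At 25 dpp it measured 2401 and 1908 CPM in KO against 504 and 771 CPM in WT. The groups did not overlap at either age, and the lowest level of all 8 libraries was in WT at 25 dpp. The log2 fold change of MMVL30-int, KO over WT, was 1.02 ± 0.22 (SE; adjusted p = 0.0148; 2.02-fold) at 19 dpp and 1.76 ± 0.22 (adjusted p = 3.39e-04; 3.38-fold) at 25 dpp, by edgeR's quasi-likelihood test with Benjamini-Hochberg adjustment over all 24407 genes and repeat families tested. RLTR6_Mm, the LTR with the most counts among the VL30 LTRs, measured 409 and 388 CPM in KO against 237 and 193 CPM in WT at 19 dpp (0.89 ± 0.24, adjusted p = 0.0342). It measured 360 and 281 CPM in KO against 71.9 and 119 CPM in WT at 25 dpp (1.75 ± 0.25, adjusted p = 5.16e-04). MMVL30-int had between 6.47 and 7.38 times the counts of RLTR6_Mm in each of the 8 libraries, although both families varied several-fold between libraries. RLTR6C_Mm, another RLTR6 LTR, rose at 25 dpp, with 9.15 and 9.39 CPM in KO against 2.44 and 3.71 CPM in WT (1.59 ± 0.28, adjusted p = 0.00134; −0.24 with the Sertoli marker scaling). RLTR6B_Mm did not pass the test at either age, with 30.8 and 27.3 CPM in KO against 20.9 and 21.5 CPM in WT at 19 dpp and 26.6 and 23.2 CPM in KO against 25.9 and 21.7 CPM in WT at 25 dpp. Leaving out each library in turn kept the 25 dpp calls of MMVL30-int (1.48 to 2.09), RLTR6_Mm (1.43 to 2.16) and RLTR6C_Mm (1.32 to 1.93) in all 8 fits. At 19 dpp MMVL30-int lost its call without either KO library or without WT replicate 2 (0.91 to 1.13 over the 8 fits, highest adjusted p = 0.120), and RLTR6_Mm lost it without any single library of that age (0.75 to 1.05, highest adjusted p = 0.193).

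**Figure D1:**
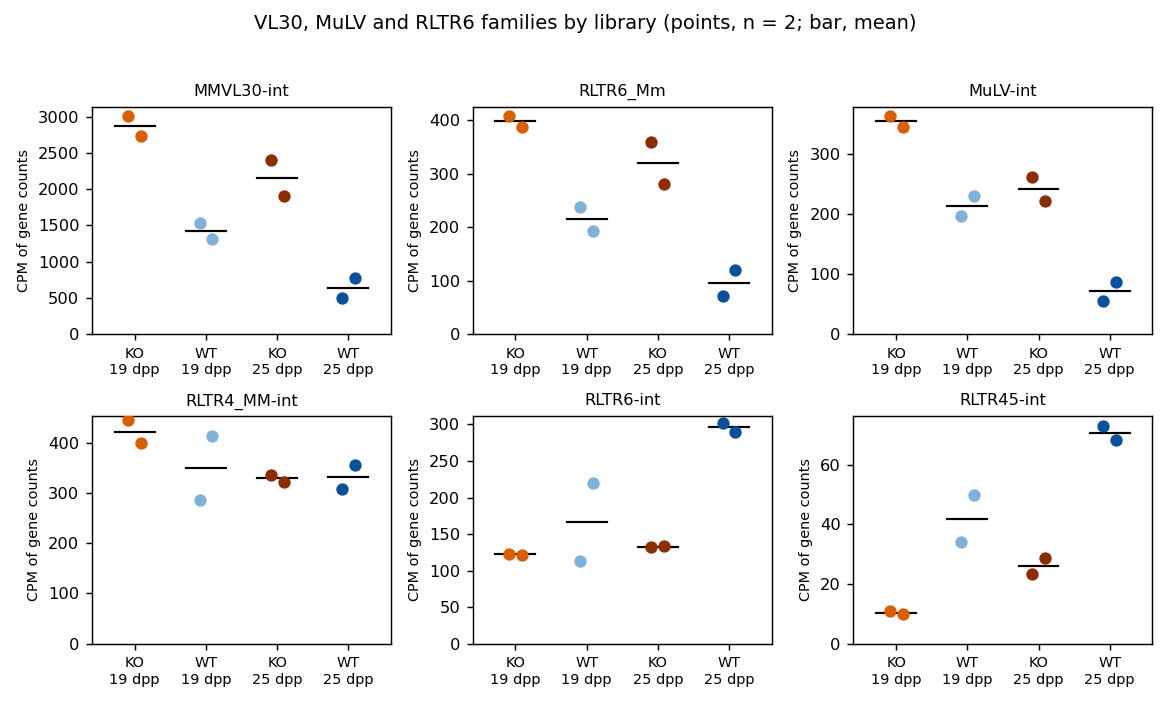
Level of 6 families in each library, in CPM of gene counts on axes that start at 0, with 1 point per library and a bar at the mean of the 2 libraries of KO and WT at 19 and 25 dpp. On this scale MMVL30-int, RLTR6_Mm and MuLV-int lie higher in KO than in WT at both ages and lowest in WT at 25 dpp (scaled by Sertoli marker counts their 25 dpp log2 fold changes turn to −0.09, −0.09 and −0.08), RLTR4_MM-int lies between 286 and 445 CPM in all groups, and RLTR6-int and RLTR45-int are highest in WT at 25 dpp.

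MuLV-int was higher in KO at both ages, as VL30 was, relative to the gene total, and turned to −0.06 at 19 dpp and −0.08 at 25 dpp with the Sertoli marker scaling. RLTR4_MM-int, the other MuLV-type internal part, did not pass the test relative to the gene total. On the Sertoli marker scale 12 of the 14 internal parts fell at 25 dpp, RLTR4_MM-int among them and MuLV-int not. MuLV-int measured 363 and 345 CPM in KO against 196 and 229 CPM in WT at 19 dpp. At 25 dpp it measured 261 and 222 CPM in KO against 55.7 and 87.0 CPM in WT. Its log2 fold change was 0.73 ± 0.21 (adjusted p = 0.0429) at 19 dpp and 1.76 ± 0.22 (adjusted p = 3.19e-04; 3.38-fold) at 25 dpp. Named for the RLTR4 LTR, RLTR4_MM-int measured 445 and 399 CPM in KO against 286 and 413 CPM in WT at 19 dpp (0.27 ± 0.19, adjusted p = 0.349). It measured 335 and 322 CPM in KO against 307 and 355 CPM in WT at 25 dpp (−0.01 ± 0.19, adjusted p = 0.961), where the groups overlapped as they did at 19 dpp. MuLV-int thus had 0.817 and 0.864 times the counts of RLTR4_MM-int in KO against 0.686 and 0.555 times in WT at 19 dpp, and 0.778 and 0.689 times in KO against 0.181 and 0.245 times in WT at 25 dpp. The LTR RLTR4_Mm measured 28.5 and 28.3 CPM in KO against 26.0 and 40.9 CPM in WT at 19 dpp, and 26.3 and 30.4 CPM in KO against 39.2 and 43.4 CPM in WT at 25 dpp (−0.54 ± 0.23, adjusted p = 0.0643; −0.94, adjusted p = 0.00720, with TMM scaling, edgeR's trimmed-mean factors). MuLV-int and RLTR4_MM-int are related sequences, so the counting may have split reads between them. The 25 dpp call of MuLV-int held without any single library (1.47 to 2.12). Its 19 dpp call was lost without any of the 4 libraries of that age or either KO library at 25 dpp (0.63 to 0.85, highest adjusted p = 0.226).

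The RLTR6 name covers both directions relative to the gene total. Scaled by Sertoli marker counts, 0 of the 180 families tested rose at either age. RLTR6-int, an internal part that shares its name with the VL30 LTRs, fell at 25 dpp, with 132 and 134 CPM in KO against 302 and 290 CPM in WT (−1.15 ± 0.26, adjusted p = 0.00464). At 19 dpp it measured 122 and 122 CPM in KO against 114 and 219 CPM in WT (−0.45 ± 0.26, adjusted p = 0.264), where the groups overlapped and the WT libraries were far apart. RLTR6-int had 0.366 and 0.477 times the counts of RLTR6_Mm in KO against 4.20 and 2.44 times in WT at 25 dpp. At 19 dpp that ratio was 0.299 and 0.314 in KO against 0.481 and 1.14 in WT. The 25 dpp fall of RLTR6-int was called without any single library (−1.18 to −1.13).

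Most internal parts that changed were lower in KO testes. Among the 14 internal parts, 2 rose and 5 fell at 19 dpp, where 7.69% of the 1054 repeat families tested and 19.6% of all genes and repeat families tested were called (0.949% of repeat families higher and 6.74% lower). At 25 dpp 4 rose and 6 fell, where 38.3% of repeat families and 68.0% of all genes and repeat families were called (18.3% of repeat families higher and 20.0% lower). With the Sertoli marker scaling 0 internal parts rose at either age, and 9 fell at 19 dpp and 12 at 25 dpp. RLTR45-int measured 10.8 and 9.85 CPM in KO against 34.1 and 49.8 CPM in WT at 19 dpp (−2.02 ± 0.23, adjusted p = 0.00284). It had 23.3 and 28.6 CPM in KO against 73.1 and 68.4 CPM in WT at 25 dpp (−1.45 ± 0.22, adjusted p = 7.25e-04). This was the single family of the 191 whose 19 dpp call held in all 8 fits that left out a library (−2.27 to −1.72), and its 25 dpp call held in all 8 as well (−1.60 to −1.31). RLTR1B-int fell by 1.26 ± 0.19 at 19 dpp (adjusted p = 0.00471) and by 0.87 ± 0.19 at 25 dpp (adjusted p = 0.00344) on the log2 scale. Its levels were 29.6 and 31.8 CPM in KO against 63.2 and 84.3 CPM in WT at 19 dpp, and 48.8 and 59.8 CPM in KO against 99.5 and 98.9 CPM in WT at 25 dpp. RLTR44-int fell to 10.9 and 10.0 CPM in KO at 19 dpp, against 17.4 and 29.5 CPM in WT (−1.17 ± 0.32, adjusted p = 0.0344), and to 7.44 and 12.2 CPM in KO at 25 dpp, against 28.9 and 27.6 CPM in WT (−1.52 ± 0.32, adjusted p = 0.00297).

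Both MuRRS internal parts lay lower in KO at 25 dpp. MuRRS-int measured 26.1 and 25.3 CPM in KO against 49.5 and 76.8 CPM in WT at 19 dpp (−1.30 ± 0.28, adjusted p = 0.0153). The 25 dpp levels of MuRRS-int were 33.1 and 53.5 CPM in KO against 71.5 and 85.7 CPM in WT (−0.86 ± 0.28, adjusted p = 0.0218). MuRRS4-int measured 24.3 and 24.9 CPM in KO against 22.5 and 43.1 CPM in WT at 19 dpp, where the groups overlapped. It fell to 27.9 and 39.2 CPM in KO at 25 dpp, against 61.9 and 59.4 CPM in WT (−0.86 ± 0.30, adjusted p = 0.0299). RLTR10-int fell at 19 dpp, with 77.1 and 75.8 CPM in KO against 108 and 113 CPM in WT (−0.53 ± 0.14, adjusted p = 0.0333), and did not pass the test at 25 dpp, with 78.0 and 90.9 CPM in KO against 97.0 and 101 CPM in WT.

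Relative to the gene total, smaller rises were seen in a pair of internal parts at 25 dpp, RLTR18-int and RLTR19-int, which turned to −0.98 and −1.45 with the Sertoli marker scaling. RLTR19-int also did not pass with TMM scaling (0.02, adjusted p = 0.863). RLTR18-int measured 15.4 and 15.0 CPM in KO against 7.53 and 8.91 CPM in WT (0.89 ± 0.21, adjusted p = 0.00552), and RLTR19-int measured 118 and 121 CPM in KO against 83.7 and 96.1 CPM in WT (0.41 ± 0.14, adjusted p = 0.0288). Neither passed the test at 19 dpp, where RLTR18-int had 16.8 and 15.8 CPM in KO against 16.7 and 15.4 CPM in WT and RLTR19-int had 152 and 145 CPM in KO against 137 and 123 CPM in WT. RLTR14-int and RLTR42-int did not pass at either age. RLTR14-int stayed between 32.9 and 53.0 CPM in the KO libraries and between 34.9 and 42.6 CPM in the WT libraries. RLTR42-int stayed between 25.7 and 30.3 CPM in KO and between 21.7 and 28.6 CPM in WT.

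Several of these internal-part calls rested on single libraries. At 19 dpp RLTR1B-int lost its call without KO replicate 1 (highest adjusted p = 0.0716), RLTR44-int and MuRRS-int lost theirs without either KO library or WT replicate 2 (0.219 and 0.126), and RLTR10-int lost its call without any library of that age or either KO library at 25 dpp (0.199). Without WT replicate 2 the log2 fold change of RLTR44-int at 19 dpp was −0.73. At 25 dpp MuRRS-int lost its call without KO replicate 1 or WT replicate 2 (−1.25 to −0.55, highest adjusted p = 0.152). MuRRS4-int lost its 25 dpp call in 5 of the 8 fits (−1.12 to −0.63, highest adjusted p = 0.179) and RLTR19-int also in 5 of the 8 (0.32 to 0.52, highest adjusted p = 0.119). The 25 dpp calls of RLTR1B-int, RLTR44-int and RLTR18-int held in all 8 fits.

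**Figure D2:**
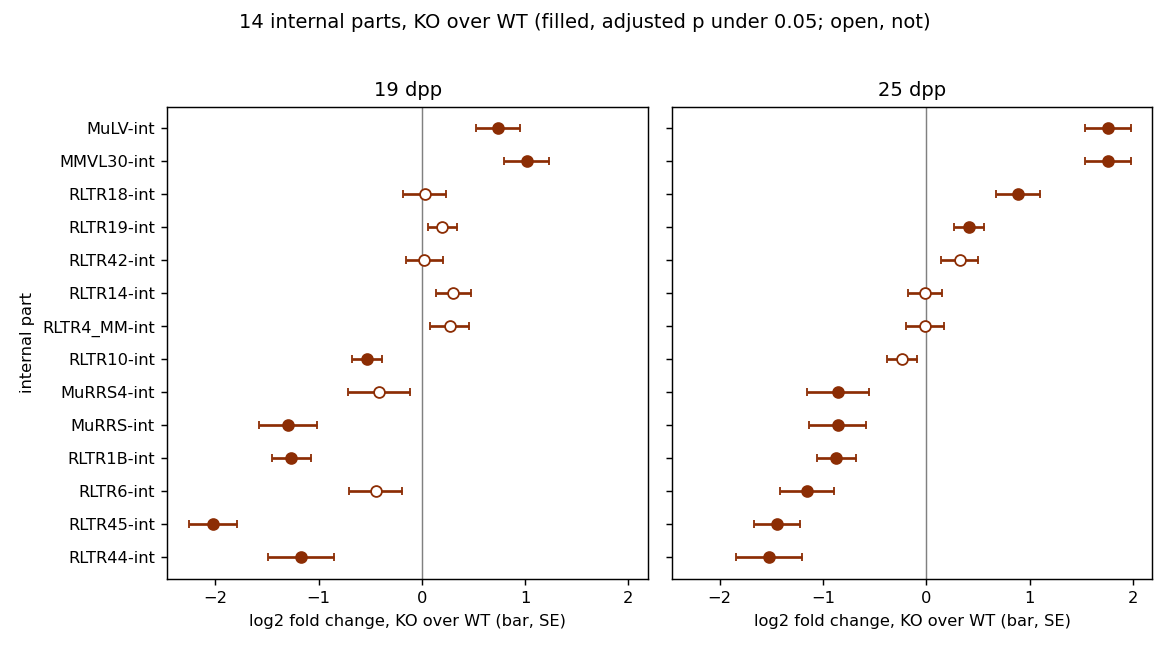
Log2 fold change, KO over WT, of the 14 internal parts at 19 dpp (left) and 25 dpp (right), with bars of 1 SE and filled points where the adjusted p was under 0.05. MuLV-int and MMVL30-int stand at 0.73 and 1.02 at 19 dpp and both at 1.76 at 25 dpp, and 5 internal parts at 19 dpp and 6 at 25 dpp are called lower. The values are relative to the gene total, and with the Sertoli marker scaling the 4 rises at 25 dpp turn negative.

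MMVL30-int and the summed level of Sertoli cell markers stood in the same order over all 8 libraries. Sertoli cells are the somatic cells that nurse the germ cells. Of 30 listed Sertoli cell markers, 29 were in the tables, none of them at 0 in every library. Of these 29, 17 rose and 0 fell in KO at 19 dpp (median log2 fold change 0.87), and 27 rose and 0 fell at 25 dpp (1.73). Markers of some other cell types were higher in KO at 25 dpp as well: 9 of 14 for undifferentiated spermatogonia (median log2 fold change 1.43), 4 of 6 for peritubular myoid cells (0.67) and 3 of 6 for endothelial cells (0.78) rose and none fell. Of all genes and repeat families tested, 37.9% rose and 30.1% fell at that age. Other lists outside the germ line were mixed at 25 dpp. Of 8 Leydig cell markers 1 rose and 4 fell (−1.22), and of 11 macrophage markers 1 rose and 0 fell (0.48). Of 6 lymphocyte markers tested 2 rose and 1 fell (0.26), and of 5 red blood cell markers 0 rose and 1 fell (−1.29). At 19 dpp 1 spermatogonial marker rose and 1 fell, 1 peritubular myoid marker rose and 2 endothelial markers rose. At that age 5.33% of all genes and repeat families tested rose and 14.3% fell. The summed spermatogonial level was 344 and 406 CPM in KO against 410 and 326 CPM in WT at 19 dpp, where the groups overlapped, and 345 and 326 CPM in KO against 134 and 180 CPM in WT at 25 dpp. Peritubular myoid markers summed to 1047 and 989 CPM in KO against 906 and 771 CPM in WT at 19 dpp, and to 501 and 602 CPM in KO against 266 and 363 CPM in WT at 25 dpp. Endothelial markers summed to 161 and 121 CPM in KO against 69.3 and 81.1 CPM in WT at 19 dpp, and to 51.5 and 51.0 CPM in KO against 31.2 and 34.5 CPM in WT at 25 dpp. The part of each of these cell types in the VL30 and MuLV-int rises was not tested. The summed level of the Sertoli markers was 15635 and 14070 CPM in KO against 9286 and 8063 CPM in WT at 19 dpp, and 13097 and 10943 CPM in KO against 2731 and 3949 CPM in WT at 25 dpp. MMVL30-int amounted to 19.3% and 19.4% of the Sertoli marker counts in KO against 16.5% and 16.3% in WT at 19 dpp. At 25 dpp it amounted to 18.3% and 17.4% in KO against 18.5% and 19.5% in WT, where the KO libraries lay below the WT libraries. MuLV-int amounted to 2.32% and 2.45% in KO against 2.11% and 2.85% in WT at 19 dpp, and to 1.99% and 2.03% in KO against 2.04% and 2.20% in WT at 25 dpp. With the libraries scaled by the Sertoli marker counts in place of the gene counts, MMVL30-int had a log2 fold change, KO over WT, of 0.24 (adjusted p = 0.341) at 19 dpp and −0.09 (adjusted p = 0.691) at 25 dpp. MuLV-int then had −0.06 (adjusted p = 0.872) and −0.08 (adjusted p = 0.735), and RLTR6_Mm had 0.12 (adjusted p = 0.616) and −0.09 (adjusted p = 0.665). That scaling moves the median of all genes and repeat families tested to −0.83 at 19 dpp and −1.56 at 25 dpp, against −0.05 and 0.31 with the gene totals. On it 0 of the 180 families tested rose in KO at either age (0 also had an unadjusted p under 0.05; scaled by gene totals, the only scale on which they were run, DESeq2 called 4 and 22 higher at 19 and 25 dpp, and limma-voom 4 and 24), and 95 fell at 19 dpp and 163 at 25 dpp. RLTR6-int did not follow these markers: its highest levels were in the WT libraries at 25 dpp, where the Sertoli marker sum was lowest.

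**Figure D3:**
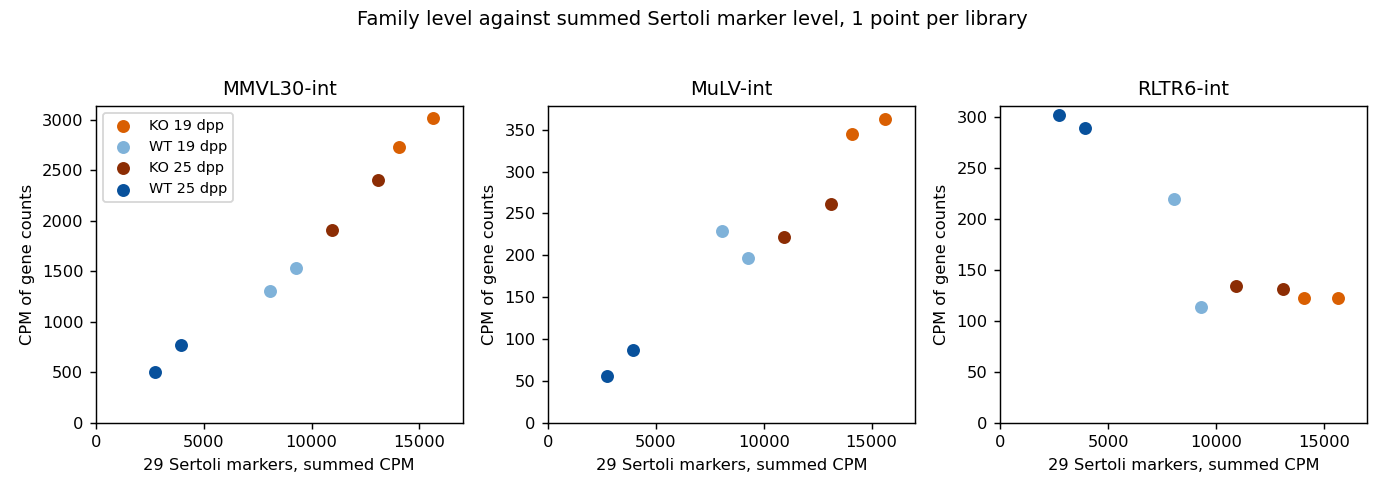
Level of MMVL30-int, MuLV-int and RLTR6-int (vertical, CPM of gene counts) against the summed level of 29 Sertoli cell markers (horizontal, CPM), with 1 point per library coloured by group. MMVL30-int climbs with the marker sum, from 504 CPM at a sum of 2731 CPM to 3016 CPM at a sum of 15635 CPM, MuLV-int does so less evenly, and RLTR6-int is highest in the 2 libraries with the lowest marker sum.

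Across all the families, falls outnumbered rises at both ages. Of the 191 families, 180 passed the filter on low counts (all 14 internal parts and 166 LTRs). The other 11 had between 0 and 42 counts in all libraries together, with 2 of them, RLTR43A and RLTR43B, listed at 0 throughout. At 19 dpp 4 of the 180 were higher and 25 lower in KO (16.1% called, above the 7.69% of repeat families and below the 19.6% of all genes and repeat families). At 25 dpp 23 were higher and 44 lower (37.2% called, close to the 38.3% of repeat families and below the 68.0% of all genes and repeat families). The median log2 fold change of the 180 families was −0.25 at 19 dpp, against −0.11 over all repeat families and −0.05 over all genes and repeat families. At 25 dpp it was −0.18, against 0.01 and 0.31. Among the LTRs alone, 2 rose and 20 fell at 19 dpp, and 19 rose and 38 fell at 25 dpp. By direction, 2.22% of the families rose and 13.9% fell at 19 dpp, against 0.949% and 6.74% of repeat families. Of all genes and repeat families tested, 5.33% rose and 14.3% fell at that age, so the share of falls was close to theirs. At 25 dpp 12.8% of the families rose and 24.4% fell, against 18.3% and 20.0% of repeat families. For all genes and repeat families tested the 25 dpp shares were 37.9% higher and 30.1% lower. With TMM scaling the 25 dpp split was 11 higher and 75 lower, and with the repeat totals as scale it was 9 higher and 72 lower. Of the 29 calls at 19 dpp, 1 was also called without KO replicate 1, 5 without KO replicate 2, 17 without WT replicate 1 and 7 without WT replicate 2. Of the 67 at 25 dpp, 29 were also called without KO replicate 1, 40 without KO replicate 2, 36 without WT replicate 1 and 55 without WT replicate 2. All kept their sign in each of these fits.

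The calls at the 2 ages did not conflict. MMVL30-int, MuLV-int, RLTR6_Mm and RLTR21, 4 of the 180 families, were higher at both ages relative to the gene total, 15 were lower at both, 10 were lower at 19 dpp alone, 19 were higher at 25 dpp alone and 29 were lower at 25 dpp alone. No family was called in opposite directions, and 103 were called at neither age.

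**Figure D4:**
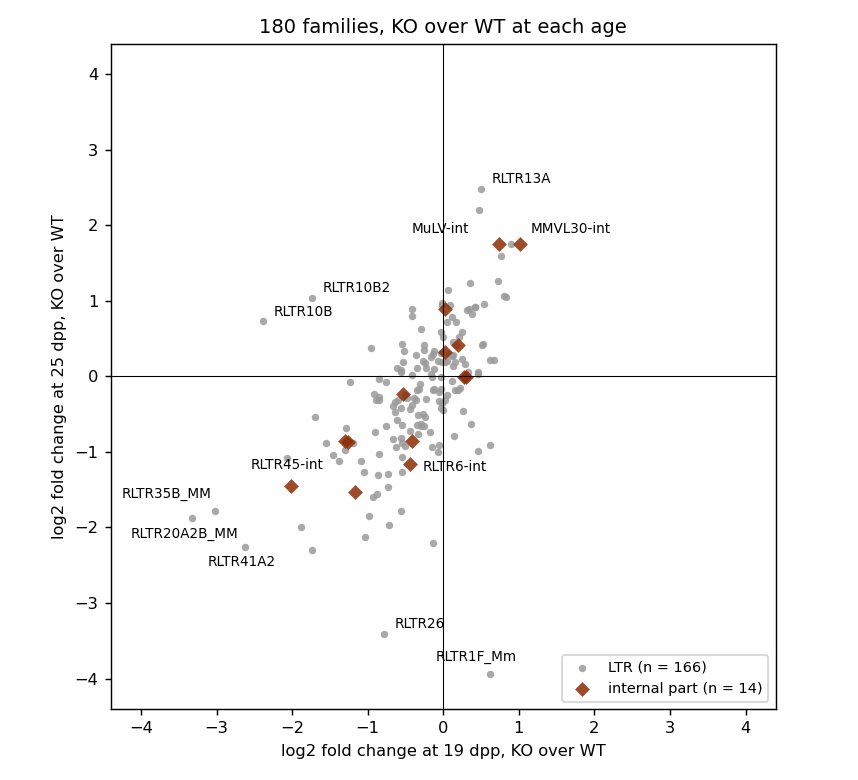
Log2 fold change, KO over WT, at 19 dpp (horizontal) and 25 dpp (vertical) of the 180 families tested, with 166 LTRs as grey circles and 14 internal parts as brown diamonds. MMVL30-int and MuLV-int lie in the upper right, RLTR45-int, RLTR20A2B_MM, RLTR35B_MM and RLTR41A2 in the lower left, RLTR10B and RLTR10B2 are negative at 19 dpp alone, and RLTR1F_Mm and RLTR26 have the lowest values at 25 dpp. Scaled by Sertoli markers, MMVL30-int and MuLV-int stand at −0.09 and −0.08 at 25 dpp.

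At 19 dpp the LTRs with the largest falls were of low to middling level. RLTR20A2B_MM fell to 1.42 and 1.42 CPM in KO, against 9.06 and 19.3 CPM in WT (−3.32 ± 0.61, adjusted p = 0.0107). RLTR35B_MM fell to 1.15 and 1.54 CPM in KO, against 6.34 and 15.7 CPM in WT (−3.02 ± 0.45, adjusted p = 0.00455). RLTR41A2 fell to 3.11 and 2.74 CPM in KO, against 10.6 and 25.4 CPM in WT (−2.62 ± 0.57, adjusted p = 0.0182). In all these families the KO libraries lay close together and below both WT libraries, and WT replicate 2 lay well above WT replicate 1, as did the sum of the pachytene markers given above. The same order of the WT libraries held for RLTR19D, with 0.622 and 1.69 CPM in KO against 4.09 and 5.88 CPM in WT (−2.07 ± 0.46, adjusted p = 0.0161). It held for RLTR44A too, with 1.02 and 0.874 CPM in KO against 2.54 and 4.43 CPM in WT (−1.89 ± 0.39, adjusted p = 0.0125). RLTR51B_Mm measured 2.18 and 2.65 CPM in KO against 6.63 and 9.15 CPM in WT (−1.70 ± 0.29, adjusted p = 0.00711). Between the KO libraries the order varied. RLTR41A2 and RLTR44A were lower in KO replicate 2, where the pachytene marker sum was the higher, while RLTR35B_MM, RLTR19D and RLTR51B_Mm were higher there. The part of spermatocyte RNA in these falls was not tested. Smaller falls were called for RLTR14, the LTR of RLTR14-int, with 13.0 and 10.8 CPM in KO against 20.8 and 24.3 CPM in WT (−0.92 ± 0.23, adjusted p = 0.0245), and for RLTR11A2, with 22.8 and 20.9 CPM in KO against 33.5 and 40.4 CPM in WT (−0.76 ± 0.21, adjusted p = 0.0358).

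RLTR10B and RLTR10B2, LTRs that have been described as enhancers in mouse meiotic germ cells, differed most between the WT libraries. RLTR10B measured 4.44 and 7.32 CPM in KO against 45.8 and 16.2 CPM in WT at 19 dpp (−2.39 ± 0.47, adjusted p = 0.0125). RLTR10B2 measured 3.95 and 7.02 CPM in KO against 27.4 and 9.47 CPM in WT at 19 dpp (−1.74 ± 0.49, adjusted p = 0.0407). Here WT replicate 1 was the high library, the reverse of the order seen in RLTR20A2B_MM. Without WT replicate 1 the log2 fold change at 19 dpp was −1.45 for RLTR10B, still called, and −0.78 for RLTR10B2, no longer called. The 19 dpp call of RLTR10B was lost without either KO library at that age (highest adjusted p = 0.129), and that of RLTR10B2 was called in 1 of the 8 fits.

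The remaining LTR rise at 19 dpp was RLTR21, with 56.3 and 47.6 CPM in KO against 29.7 and 33.2 CPM in WT (0.72 ± 0.22, adjusted p = 0.0496). It was called in 2 of the 8 fits that left out a library (highest adjusted p = 0.306) and stood at −0.07 with the Sertoli marker scaling. Among the named falls at 19 dpp, RLTR35B_MM and RLTR51B_Mm lost their calls without KO replicate 1 alone (highest adjusted p = 0.0690 and 0.0937), RLTR19D without KO replicate 1 or WT replicate 2 (0.114), and RLTR20A2B_MM without either KO library (0.117). RLTR41A2, RLTR44A and RLTR14 lost theirs without either KO library or WT replicate 2 (0.149, 0.103 and 0.152), and RLTR11A2 in 5 of the 8 fits (0.193). Over the 8 fits the log2 fold change ran from −3.53 to −2.22 for RLTR35B_MM, from −3.00 to −1.56 for RLTR19D, from −3.76 to −2.67 for RLTR20A2B_MM and from −3.12 to −1.87 for RLTR41A2.

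At 25 dpp the largest rise among the 180 families was in RLTR13A, an LTR of the RLTR13 group. It measured 23.3 and 18.7 CPM in KO against 3.73 and 3.76 CPM in WT (2.49 ± 0.28, adjusted p = 2.31e-04; 5.61-fold). At 19 dpp it had measured 19.0 and 18.7 CPM in KO against 16.3 and 10.5 CPM in WT, so the low values were those of WT at 25 dpp. As a share of the Sertoli marker counts RLTR13A was 0.178% and 0.171% in KO against 0.136% and 0.0952% in WT at 25 dpp, and with the libraries scaled by those counts its log2 fold change was 0.59 (adjusted p = 0.0810). RLTR30D_RN, at 1 CPM or less on average in every group and named after its values were seen, had the next largest called LTR rise. It measured 1.12 and 0.530 CPM in KO against 0.119 and 0.244 CPM in WT at 25 dpp (2.20 ± 0.57, adjusted p = 0.00822). It lost its call without KO replicate 1 or WT replicate 1 of that age (1.55 to 2.78, highest adjusted p = 0.0948), and had 0.36 (adjusted p = 0.556) with the Sertoli marker scaling. RLTR21 rose to 32.0 and 39.4 CPM in KO, against 12.5 and 17.3 CPM in WT (1.26 ± 0.22, adjusted p = 0.00129). RLTR20A3_MM rose to 12.7 and 11.7 CPM in KO, against 4.80 and 5.61 CPM in WT (1.23 ± 0.24, adjusted p = 0.00201). Smaller rises in LTRs at under 10 CPM were those of RLTR17C_Mm (1.14 ± 0.33, adjusted p = 0.0142), RLTR20B1 (1.07 ± 0.31, adjusted p = 0.0148) and RLTR13B4 (0.98 ± 0.25, adjusted p = 0.00797). RLTR20C1_MM rose slightly, with 45.5 and 43.2 CPM in KO against 32.8 and 32.1 CPM in WT (0.45 ± 0.16, adjusted p = 0.0335). The calls of RLTR13A (2.32 to 2.64), RLTR21 (1.05 to 1.51) and RLTR20A3_MM (1.12 to 1.35) held without any single library. RLTR17C_Mm lost its call without KO replicate 2 or WT replicate 1 of that age (highest adjusted p = 0.0948), RLTR20B1 without KO replicate 1 or WT replicate 1 (0.0792), RLTR13B4 without KO replicate 1 (0.0521) and RLTR20C1_MM in 6 of the 8 fits (0.147). Under the Sertoli marker scaling every rise named here other than those of RLTR13A and RLTR30D_RN turned negative, with RLTR21 at −0.57, RLTR20A3_MM at −0.64, RLTR17C_Mm at −0.70, RLTR20B1 at −0.83, RLTR13B4 at −0.89 and RLTR20C1_MM at −1.44. RLTR17C_Mm, RLTR20B1 and RLTR20C1_MM did not pass with TMM scaling either (0.75, 0.67 and 0.05).

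RLTR1F_Mm and RLTR26 had the deepest falls at 25 dpp among the 180 families, and RLTR1F_Mm was near the floor of 3 counts in the other 3 groups. RLTR1F_Mm measured 0.118 and 0.151 CPM in KO against 2.16 and 2.03 CPM in WT at 25 dpp (−3.93 ± 0.55, adjusted p = 4.81e-04). At 19 dpp it had measured 0.400 and 0.151 CPM in KO against 0.184 and 0.157 CPM in WT. RLTR26 measured 0.591 and 1.10 CPM in KO against 12.5 and 5.22 CPM in WT at 25 dpp (−3.40 ± 0.54, adjusted p = 7.88e-04). Its WT libraries at 25 dpp stood in the same order as the spermatid marker sums, 5687 and 2606 CPM. RLTR1D2_MM fell to 5.55 and 9.77 CPM in KO, against 35.7 and 31.1 CPM in WT (−2.13 ± 0.35, adjusted p = 9.06e-04). RLTR41A2 fell to 4.28 and 12.0 CPM in KO, against 34.6 and 42.6 CPM in WT (−2.25 ± 0.54, adjusted p = 0.00723), and RLTR20A2B_MM to 3.45 and 11.3 CPM in KO, against 24.9 and 29.3 CPM in WT (−1.88 ± 0.55, adjusted p = 0.0170). In both, KO replicate 2 was the higher KO library, as it was for the pachytene marker sum. The WT libraries did not share that order. WT replicate 2 was the higher in both families, while the pachytene marker sum was 8961 CPM in WT replicate 1 and 8056 CPM in WT replicate 2. RLTR35B_MM fell to 5.32 and 6.89 CPM in KO, against 19.4 and 22.6 CPM in WT (−1.78 ± 0.41, adjusted p = 0.00466). The part of spermatocyte and spermatid RNA in these falls was not tested.

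**Figure D5:**
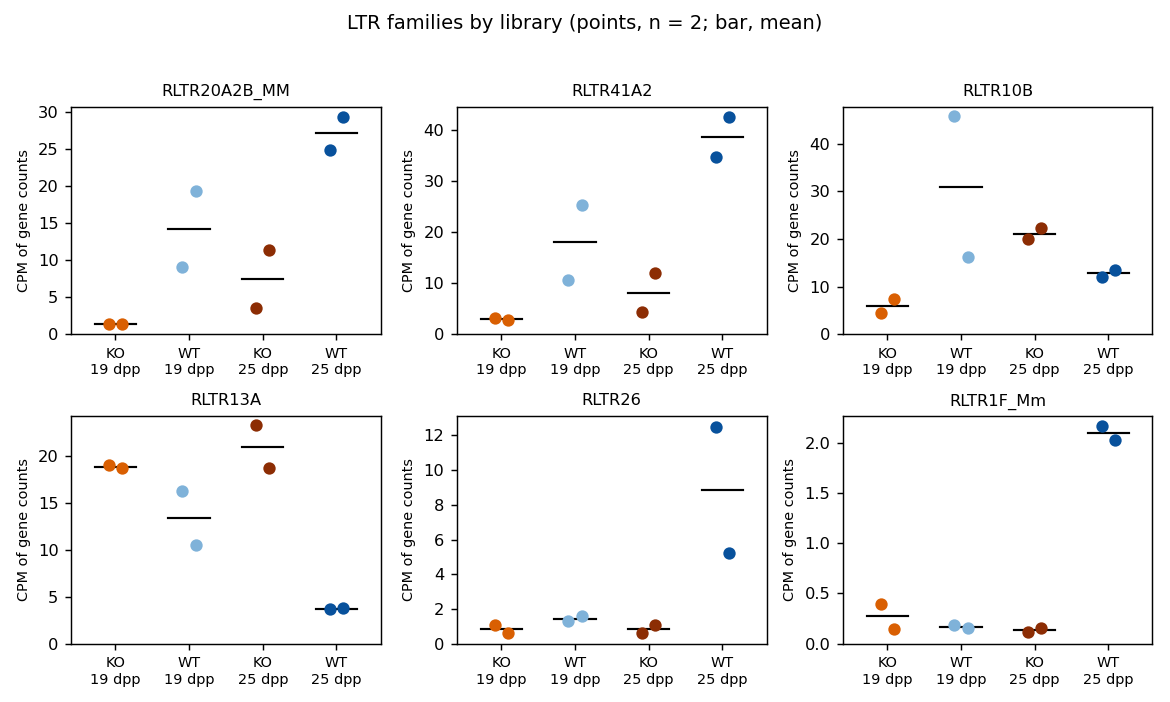
Level of 6 LTR families in each library, in CPM of gene counts on axes that start at 0, with 1 point per library and a bar at the mean of the 2 libraries of KO and WT at 19 and 25 dpp. RLTR20A2B_MM and RLTR41A2 are lower in KO at both ages, RLTR10B is highest in 1 WT library at 19 dpp, RLTR13A is lowest in WT at 25 dpp, and RLTR26 and RLTR1F_Mm are high in WT at 25 dpp alone.

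LTRs of the RLTR9 and RLTR44 groups fell in several members. RLTR9 LTRs are best known as enhancers in mouse embryonic stem cells. Of 12 RLTR9 LTRs tested, 1 rose and 6 fell in KO at 25 dpp (0 and 9 with TMM scaling, 0 and 11 with the Sertoli marker scaling), and 2 fell at 19 dpp. Of all genes and repeat families tested, 37.9% rose and 30.1% fell at 25 dpp, and 14.3% fell at 19 dpp. Among repeat families 18.3% rose and 20.0% fell at 25 dpp, and 6.74% fell at 19 dpp. Differences of these name groups from those shares were not tested. RLTR9D measured 5.85 and 6.74 CPM in KO against 27.2 and 21.9 CPM in WT at 25 dpp (−1.96 ± 0.31, adjusted p = 8.00e-04). RLTR9C, near the floor, measured 0.177 and 0.341 CPM in KO against 1.37 and 1.00 CPM in WT at 25 dpp (−2.21 ± 0.57, adjusted p = 0.00779), a call lost without KO replicate 1 (highest adjusted p = 0.0704). Of the 6 RLTR44 families, 3 fell at 19 dpp and 4 at 25 dpp, with RLTR44-int among those that fell at each age, and the others did not pass. RLTR44A fell to 1.42 and 1.93 CPM in KO at 25 dpp, against 7.30 and 5.96 CPM in WT (−1.99 ± 0.37, adjusted p = 0.00165). RLTR26, RLTR26C_MM and RLTR26_Mus fell among the 5 RLTR26 families at 25 dpp, and none rose. The RLTR20 group, with 15 tested, had 4 rises and 3 falls at 25 dpp relative to the gene total, so families that share a name did not move as a block. RLTR11A2 fell at 25 dpp as well, with 25.5 and 32.5 CPM in KO against 40.9 and 50.4 CPM in WT (−0.65 ± 0.21, adjusted p = 0.0204), a call lost without KO replicate 1 or WT replicate 2 (−0.84 to −0.49). The 25 dpp calls of RLTR1F_Mm (−4.11 to −3.76), RLTR26 (−3.90 to −2.64), RLTR1D2_MM, RLTR41A2 (−3.17 to −1.69), RLTR35B_MM, RLTR9D and RLTR44A held without any single library. That of RLTR20A2B_MM was lost without KO replicate 1 or either WT library (−2.97 to −1.26, highest adjusted p = 0.0696).

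The ratio of an internal part to the LTR that shares its name differed between KO and WT in some pairs and not in others. RLTR45-int had 1.85 and 1.69 times the counts of RLTR45 in KO against 4.98 and 6.36 times in WT at 19 dpp. At 25 dpp that ratio was 3.56 and 4.13 in KO against 6.25 and 6.11 in WT. RLTR1B-int had 4.35 and 5.23 times the counts of RLTR1B in KO against 7.56 and 12.0 times in WT at 19 dpp, and 6.35 and 9.69 times in KO against 20.8 and 17.5 times in WT at 25 dpp. RLTR1B itself measured 6.80 and 6.09 CPM in KO against 8.36 and 7.01 CPM in WT at 19 dpp and 7.68 and 6.17 CPM in KO against 4.78 and 5.64 CPM in WT at 25 dpp, and did not pass the test at either age. For RLTR4_MM-int over RLTR4_Mm the ratio was 15.6 and 14.1 in KO against 11.0 and 10.1 in WT at 19 dpp, and 12.7 and 10.6 in KO against 7.85 and 8.18 in WT at 25 dpp. In these 3 pairs the KO and WT libraries did not overlap at either age, nor did they for RLTR10-int over RLTR10 or RLTR18-int over RLTR18. With 2 libraries per group such separation was common. By level, KO and WT overlapped in 5 of the 14 internal parts and 60 of the 166 LTRs at 19 dpp, and in 2 and 44 at 25 dpp. Such separation therefore does not single out these pairs, and its share over all genes and repeat families was not counted. The ratio of RLTR19-int to RLTR19 overlapped at both ages, with 13.0 and 16.6 in KO against 15.2 and 15.7 in WT at 19 dpp, and 15.5 and 14.2 in KO against 10.5 and 14.9 in WT at 25 dpp. That of RLTR42-int to RLTR42 overlapped at 19 dpp alone, and that of RLTR14-int to RLTR14 at 25 dpp alone. The ratio of MMVL30-int to RLTR6_Mm was 7.38 and 7.05 in KO against 6.47 and 6.81 in WT at 19 dpp and overlapped at 25 dpp, with 6.67 and 6.80 in KO against 7.01 and 6.49 in WT.

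RLTR17B_Mm and RLTR20A4, the LTRs with the highest mean level after RLTR6_Mm, showed no called change between KO and WT. RLTR17B_Mm measured 136 and 122 CPM in KO against 128 and 126 CPM in WT at 19 dpp, and 115 and 115 CPM in KO against 102 and 101 CPM in WT at 25 dpp. RLTR20A4 measured 138 and 119 CPM in KO against 128 and 122 CPM in WT at 19 dpp, and 117 and 110 CPM in KO against 97.2 and 99.5 CPM in WT at 25 dpp. RLTR31D_MM lay between 29.2 and 43.3 CPM in KO and between 32.8 and 35.8 CPM in WT. None of the 3 passed the test at either age. Without the RLTR6 LTRs, all LTRs together summed to 1352 and 1235 CPM in KO against 1485 and 1520 CPM in WT at 19 dpp, and to 1286 and 1391 CPM in KO against 1493 and 1486 CPM in WT at 25 dpp, with every KO library below the WT libraries of its age.

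VL30 and MuLV-int also changed with age in WT testes, where 25 dpp was set against 19 dpp. Of the 180 families, 17 were higher and 28 lower at 25 dpp in WT, against 12.2% of repeat families higher and 18.0% lower (30.3% of repeat families and 67.2% of all genes and repeat families were called). With the Sertoli marker scaling, which moves the median of all genes and repeat families to 0.92, 138 were higher and 0 lower. Among the internal parts, MuLV-int (−1.58 ± 0.22, adjusted p = 6.62e-04), MMVL30-int (−1.16 ± 0.22, adjusted p = 0.00205), RLTR18-int (−0.96 ± 0.21, adjusted p = 0.00404) and RLTR19-int (−0.53 ± 0.14, adjusted p = 0.0104) fell. With that scaling MuLV-int stood at −0.23, while MMVL30-int (0.21), RLTR18-int (0.44) and RLTR19-int (0.88) turned positive. RLTR6_Mm fell with the VL30 internal part (−1.17 ± 0.24, adjusted p = 0.00318; 0.19 with the Sertoli marker scaling), and RLTR13A fell by 1.84 ± 0.27 on the log2 scale (adjusted p = 8.02e-04). MuRRS4-int (0.89 ± 0.30, adjusted p = 0.0266), RLTR6-int (0.83 ± 0.26, adjusted p = 0.0209) and RLTR45-int (0.75 ± 0.22, adjusted p = 0.0146) rose. Among the LTRs the largest rises were RLTR1F_Mm (3.59 ± 0.53, adjusted p = 8.05e-04), RLTR26 (2.61 ± 0.51, adjusted p = 0.00236), RLTR9D (1.98 ± 0.31, adjusted p = 9.83e-04) and RLTR1D2_MM (1.48 ± 0.34, adjusted p = 0.00484). RLTR10B (−1.28 ± 0.45, adjusted p = 0.0341) and RLTR10B2 (−1.51 ± 0.48, adjusted p = 0.0228) were lower at 25 dpp, but without WT replicate 1 at 19 dpp their values were −0.35 and −0.55 and not called. RLTR10B stood at 0.17 with the Sertoli marker scaling. Without WT replicate 1 at 19 dpp 18 of the 45 calls were also made, and without WT replicate 1 at 25 dpp 20 were. RLTR6-int, MuRRS4-int, RLTR45-int and RLTR19-int were among the calls lost without WT replicate 1 at 19 dpp, with RLTR6-int at 0.43, MuRRS4-int at 0.49 and RLTR45-int at 0.51 in that fit; RLTR6-int and MuRRS4-int also lost theirs without either WT library at 25 dpp, and RLTR45-int without WT replicate 1 at 25 dpp. With TMM scaling 54 families rose and 8 fell with age in WT, and with the repeat totals 45 rose and 8 fell. These changes with age share the WT libraries with the comparisons of KO and WT.

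In KO testes 8 families rose and 0 fell at 25 dpp relative to 19 dpp (2.85% of repeat families, 2.28% higher and 0.569% lower, and 17.4% of all genes and repeat families were called). None fell by edgeR, 4 were lower at an unadjusted p under 0.05, DESeq2 called 2 lower and limma-voom 0. Those that rose were RLTR20A2B_MM (2.37 ± 0.60, adjusted p = 0.0340), RLTR35B_MM (2.17 ± 0.44, adjusted p = 0.0146), RLTR10B (1.84 ± 0.47, adjusted p = 0.0324), RLTR19D (1.56 ± 0.45, adjusted p = 0.0474), RLTR51B_Mm (1.34 ± 0.29, adjusted p = 0.0180), RLTR45-int (1.33 ± 0.23, adjusted p = 0.00822), RLTR13C1, and RLTR1B-int (0.82 ± 0.19, adjusted p = 0.0215). RLTR13C1 was named after its values were seen, and measured 2.21 and 3.03 CPM at 25 dpp against 0.977 and 1.14 CPM at 19 dpp in KO. MMVL30-int (−0.42 ± 0.22, adjusted p = 0.223) and MuLV-int (−0.55 ± 0.21, adjusted p = 0.110) did not pass the test in KO. All 8 calls were lost without KO replicate 1 at 19 dpp and without KO replicate 2 at 25 dpp, where 0 of the 180 families were called by edgeR and 12 had an unadjusted p under 0.05 in each fit. Without KO replicate 2 at 19 dpp 1 of the 8 was called, and RLTR20A2B_MM ran from 1.28 to 2.99 over the 8 fits.

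The KO effect itself differed between the ages in 9 families, with 6 more positive and 3 more negative at 25 dpp (8.35% of repeat families, 5.79% more positive and 2.56% more negative, and 31.3% of all genes and repeat families were called). The difference, KO effect at 25 dpp minus KO effect at 19 dpp, was 3.12 ± 0.65 for RLTR10B (adjusted p = 0.0126), 2.78 ± 0.68 for RLTR10B2 (adjusted p = 0.0203) and 1.99 ± 0.37 for RLTR13A (adjusted p = 0.00882). MuLV-int differed by 1.03 ± 0.30 (adjusted p = 0.0332), and MMVL30-int, with 0.74 ± 0.31, did not pass the test (adjusted p = 0.0940). The most negative differences were in RLTR1F_Mm (−4.55 ± 0.83, adjusted p = 0.00845) and RLTR26 (−2.61 ± 0.75, adjusted p = 0.0308). The median difference over all genes and repeat families tested was 0.50, against 0.17 over the 180 families. With TMM scaling 2 families were more positive and 6 more negative, with the repeat totals 2 and 4, and MuLV-int did not pass under either (0.60 and 0.64). With the Sertoli marker scaling 0 were more positive and 12 more negative, and MuLV-int (−0.02) and MMVL30-int (−0.33) turned negative. Leaving out each library in turn gave from 2 to 14 calls. RLTR13A (1.64 to 2.28) and RLTR1F_Mm (−5.15 to −3.76) were called in all 8 fits, and MuLV-int lost its call without any library at 19 dpp or either KO library at 25 dpp (0.74 to 1.38). RLTR10B was lost without KO replicate 1 at 19 dpp or WT replicate 1 at 25 dpp, and fell to 2.18 without WT replicate 1 at 19 dpp. RLTR10B2 lost its call in 4 of the 8 fits, and had 1.82 without WT replicate 1 at 19 dpp. RLTR26 lost its call in 5 of the 8 fits (−3.11 to −1.85).

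Other groups of retroelements are given for comparison. Over all repeat families tested, 0.949% rose and 6.74% fell at 19 dpp, and 18.3% rose and 20.0% fell at 25 dpp. Over all genes and repeat families tested, 5.33% rose and 14.3% fell at 19 dpp, and 37.9% rose and 30.1% fell at 25 dpp. At 19 dpp, 2 of 34 IAP, ETn and MMERVK families rose and 2 fell in KO (median log2 fold change −0.22), and 14 of 139 MERVL and MaLR families fell while none rose (−0.25). At the same age 1 of 118 LINE-1 families rose and 3 fell (−0.09), and 0 of 26 SINE families passed the test (−0.01), with 0 at an unadjusted p under 0.05 and 0 by DESeq2 or limma-voom. At 25 dpp 14 IAP, ETn and MMERVK families rose and 4 fell (0.42), 13 MERVL and MaLR families rose and 43 fell (−0.22), 16 LINE-1 families rose and 20 fell (−0.02), and 24 SINE families rose (0.63). These rises depended on the scale: with TMM scaling 8, 2, 6 and 6 families of these 4 groups rose and 6, 71, 44 and 0 fell, and with the Sertoli marker scaling 1, 0, 0 and 0 rose and 25, 133, 112 and 26 fell. Differences between these groups and the RLTR, VL30 and MuLV families were not tested.

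Genes that silence endogenous retroviruses fell in part at 19 dpp and, relative to the gene total, rose in part at 25 dpp. Of 38 such genes, 10 fell and the others did not pass in KO at 19 dpp (median log2 fold change −0.42), and 21 rose and 7 fell at 25 dpp (0.55). Of all genes and repeat families tested, 5.33% rose and 14.3% fell at 19 dpp, and 37.9% rose and 30.1% fell at 25 dpp, so that 68.0% were called at 25 dpp. With TMM scaling 12 rose and 11 fell at 25 dpp (0.17), and with the Sertoli marker scaling 0 rose and 31 fell (−1.29). The 19 dpp counts were 2 higher and 11 lower with TMM scaling (−0.36), and 0 higher and 30 lower with the Sertoli marker scaling (−1.19). Zfp809, a zinc finger protein that binds the primer binding site of MuLV and recruits the co-repressor Trim28, measured 18.7 and 19.5 CPM in KO against 18.6 and 21.2 CPM in WT at 19 dpp. It rose to 23.4 and 24.6 CPM in KO at 25 dpp, against 12.4 and 13.4 CPM in WT (0.90, adjusted p = 0.00334; 0.51 with TMM and −0.97 with the Sertoli marker scaling). Trim28 fell at both ages (−0.54, adjusted p = 0.0211, and −0.40, adjusted p = 0.0196). Setdb1, the histone methyltransferase that Trim28 brings to proviruses, fell at 19 dpp (−0.60, adjusted p = 0.0295) and rose at 25 dpp (0.77, adjusted p = 0.00272; 0.38 with TMM and −1.08 with the Sertoli marker scaling). With TMM scaling, where 12 of the 38 genes rose and 11 fell at 25 dpp, the deepest falls were in Zfp819 (−3.81), Dnmt3l (−3.56), Mael (−2.57) and Chaf1a (−2.40). The list holds 5 genes of the piRNA pathway, which targets transposons in germ cells. At 19 dpp Mael (−2.17, adjusted p = 0.00374), Piwil2 (−1.95, adjusted p = 0.00525), Mov10l1 (−2.08, adjusted p = 0.00709) and Tdrd9 (−2.67, adjusted p = 0.00506) fell, and Piwil4 did not pass (0.38, adjusted p = 0.490). The sum of 13 early meiotic prophase markers, 545 and 983 CPM in KO against 2649 and 2917 CPM in WT at 19 dpp, moved with the falls, and its part in them was not tested.

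Of 12 genes for entry and restriction of murine leukemia viruses, 2 rose in KO at 19 dpp (median log2 fold change 0.35) and 9 at 25 dpp (1.38), and the others did not pass, where 5.33% and 37.9% of all genes and repeat families tested rose. With TMM scaling 4 rose at 19 dpp, and 8 rose and 1 fell at 25 dpp (0.40 and 1.00), and with the Sertoli marker scaling 0 rose and 4 fell at 19 dpp, and 0 rose and 6 fell at 25 dpp (−0.43 and −0.46). Slc7a1, the receptor of ecotropic MuLV, measured 307 and 299 CPM in KO against 173 and 214 CPM in WT at 19 dpp (0.65, adjusted p = 0.0778). It rose to 175 and 185 CPM in KO at 25 dpp, against 71.6 and 118 CPM in WT (0.92, adjusted p = 0.00653), and had −0.90 with the Sertoli marker scaling. Apobec3, a deaminase that restricts retroviruses, rose to 28.6 and 36.3 CPM in KO at 25 dpp, against 5.97 and 8.40 CPM in WT (2.18, adjusted p = 2.45e-04; 0.35, adjusted p = 0.246, with the Sertoli marker scaling). Xpr1, the receptor of xenotropic and polytropic MuLV, did not pass the test at either age (−0.11, adjusted p = 0.628, and −0.07, adjusted p = 0.649), and was the 1 gene that fell with TMM scaling at 25 dpp (−0.47, adjusted p = 0.0136). The Sertoli marker sum moved in the same direction as the rises in this list, and its part in them was not tested.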

How the data were processed

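Whole testis RNA was sequenced from stranded mRNA libraries, per the labels' protocols. The deposited values are raw counts per gene and per repeat family, 1 table per library, made with STAR 2.7.0a and featureCounts 1.5.1 on mm10, per the submitters' processing notes. The strand setting, the treatment of multi-mapping reads and the repeat annotation are not given in the sources used here. Sequences of the repeat families were not used here.

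The families, gene lists and tests were chosen with earlier results of these data known. All genes and repeat families that passed edgeR's filterByExpr were fitted together (edgeR 4.0.16, quasi-likelihood, robust, R 4.3.3) with 1 mean per group, 4 residual degrees of freedom, and the summed gene counts as library size with no further scaling. A family was called at a Benjamini-Hochberg adjusted p under 0.05. The families named are all internal parts at 1 CPM or more on average, up to 8 LTRs with the largest called change in each direction between KO and WT at each age (4 in the other comparisons) and a mean of at least 1 CPM in the higher group, the 8 LTRs with the highest mean level, and the LTRs that share a name with a named internal part. Scripts were tested on simulated data. Alternatives included DESeq2 1.42.0, limma-voom (limma 3.58.1), other scalings and filters, and leaving out each library.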

Additional observations from a re-analysis of the deposited data

Results flagged for a closer look

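The KO effect, KO over WT on the log2 scale, differed between 25 and 19 dpp by the interaction test in 9 families, with edgeR's adjusted p between 0.00845 and 0.0424. It was more positive at 25 dpp by 3.12 in RLTR10B, by 2.78 in RLTR10B2, by 1.99 in RLTR13A, by 1.03 in MuLV-int, by 0.97 in RLTR25B and by 0.96 in RLTR17D_Mm. It was more negative at 25 dpp in RLTR31M (−1.52), RLTR26 (−2.61) and RLTR1F_Mm (−4.55). RLTR25B measured 16.3 and 17.7 CPM in KO against 24.5 and 24.9 CPM in WT at 19 dpp, and 18.2 and 16.6 CPM in KO against 11.4 and 14.4 CPM in WT at 25 dpp. RLTR31M measured 3.78 and 3.59 CPM in KO against 2.47 and 2.33 CPM in WT at 19 dpp, and 2.63 and 2.35 CPM in KO against 5.19 and 4.12 CPM in WT at 25 dpp. In both, the KO libraries lay on opposite sides of the WT libraries at the 2 ages. RLTR17D_Mm measured 12.3 and 12.3 CPM in KO against 13.1 and 11.6 CPM in WT at 19 dpp, and 14.3 and 13.5 CPM in KO against 6.92 and 7.47 CPM in WT at 25 dpp. RLTR25B, RLTR17D_Mm and RLTR31M were each called in 1 of the 8 fits that left out a library. With 2 libraries per group, no test for a single outlying library was possible.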

How the results depend on the processing

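Over all alternatives, leave-one-out fits included, 1266 fold changes of named families kept their direction and their side of the threshold, 248 kept the direction but no longer passed, 17 newly passed and 28 turned round. The causes were not tested. With the Sertoli marker counts as scale, 95 families were called between KO and WT at 19 dpp, 163 at 25 dpp and 138 with age in WT. KO over WT at 19 dpp then turned to −0.055 in MuLV-int, −0.066 in RLTR21 and −0.53 in RLTR4_MM-int. The 25 dpp value turned to −0.087 in MMVL30-int, −0.078 in MuLV-int, −0.98 in RLTR18-int, −1.45 in RLTR19-int, −0.087 in RLTR6_Mm, −0.24 in RLTR6C_Mm, −0.57 in RLTR21, −0.64 in RLTR20A3_MM, −0.70 in RLTR17C_Mm, −0.83 in RLTR20B1, −0.89 in RLTR13B4 and −1.44 in RLTR20C1_MM. With age in WT, MMVL30-int turned to 0.21, RLTR18-int to 0.44, RLTR19-int to 0.88, RLTR6_Mm to 0.19 and RLTR10B to 0.17. The difference of the KO effect, 25 minus 19 dpp, turned to −0.022 in MuLV-int, −0.33 in MMVL30-int, −0.11 in RLTR25B and −0.14 in RLTR17D_Mm. Gene totals without mitochondrial genes turned RLTR4_MM-int at 25 dpp to 0.012. With TMM scaling, or with the repeat totals, 86 or 81 families were called at 25 dpp, 62 or 53 with age in WT and 8 or 6 in the difference. Without a filter 15 families were called with age in KO, and DESeq2 called 14. For the difference, repeat families fitted apart gave 15 calls and DESeq2 14.

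Leaving out each library in turn gave 1 to 30 calls for KO over WT at 19 dpp, 29 to 67 at 25 dpp, 18 to 38 with age in WT, 0 to 9 with age in KO and 2 to 14 for the difference. In these fits a group left with 1 library is assumed to vary like the others. RLTR6-int at 19 dpp ran from −0.84 to 0.10 and RLTR4_MM-int at 25 dpp from −0.11 to 0.10. The replicate block gave 26, 65, 46, 8 and 9 calls in the 5 comparisons. Deviations of libraries that share a replicate number correlated at 0.06, 0.08, −0.03, 0.49, −0.13 and −0.09 over the 6 pairs of groups. Only the value for WT at 19 dpp with KO at 25 dpp (0.49) was above 0.1. Since the others were not, the numbers were not taken to pair the libraries. Families near the floor of 3 counts, such as RLTR1F_Mm and RLTR9C in KO, have fold changes that counting limits.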
